A study of Mus musculus with 12 samples.

Results

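The genes described here are 6 contractile genes by which peritubular myoid cells of the testis are recognised, namely Acta2, Actg2, Myh11, Tagln, Cnn1 and Des. They were taken by symbol and not by a measured value, though earlier results of these data were known when they were chosen. All 6 were found among the 37675 genes of each deposited table, of which 26788 had a count in any library. The tissue was the whole testis of inbred C57BL/6NHsd mice at postnatal day (PND) 7, 14, 17, 21 and 28, with 2 mice at each age and no treatment or altered allele in any group. Total RNA was sequenced on the SOLiD 4 after removal of ribosomal RNA, and each gene has a read count and an RPKM, which scales the count by exon length and by the reads counted in the library. The 12 libraries come from 10 mice, since each mouse of PND 7 has 2 barcodes, joined here by adding the counts and taking the mean RPKM. These ages cover the first round of spermatogenesis after birth, from testes with somatic cells and spermatogonia to testes with elongating spermatids. The comparison asks how these 6 genes, used as markers of a somatic cell type, behave while the germ cells appear.

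Peritubular myoid cells are flat, smooth muscle-like cells that surround each seminiferous tubule. They make part of the basement membrane, and their contractions help to move fluid and sperm along the tubule. Smooth muscle contracts when myosin pulls on filaments of alpha and gamma smooth muscle actin, with calponin and transgelin bound to the actin and desmin filaments linking the apparatus to the rest of the cell. The same genes are expressed in the smooth muscle of blood vessels and in the testis capsule, and transcripts of Actg2 have also been described in haploid male germ cells of the mouse. A whole testis therefore shows the sum of these sources.

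Reads assigned to genes numbered between 3994026 and 13559548 per mouse (median 7103531), and the 6 genes together took between 0.0179% and 0.0562% of them. All 6 passed the filter on low counts and were among the 16860 genes tested. A gene was called when edgeR's quasi-likelihood test, fitted to all 10 mice, gave a Benjamini-Hochberg adjusted p under 0.05 over all genes tested and the fold change was at least 2. A library that stood apart was PND 14 mouse 1. It held Tnp1 and Prm1, which package the DNA of elongating spermatids, at 157.77 and 133.37 RPKM, where PND 14 mouse 2 had 5.17 and 2.46 RPKM, the PND 17 mice had at most 5.83 RPKM of either and the PND 28 mice had 3238.33 and 4379.87 RPKM of Tnp1. It also held more Clu, a Sertoli cell gene (397.81 against 140.48 RPKM), Actb, a cytoplasmic actin (344.58 against 146.54 RPKM), and Myl9, a myosin light chain (96.65 against 36.3 RPKM), than the other mouse of its age. PND 21 mouse 1 was low in some somatic genes beside PND 21 mouse 2, with the matrix gene Dcn at 50.56 against 128.43 RPKM. Its mitochondrial ribosomal RNAs were at 16.96% against 27.07% of counts. Other somatic genes were higher in it, such as Clu (195.75 against 130.15 RPKM) and Myl9 (48.01 against 24.21 RPKM). A list of 12 Sertoli cell genes summed to 407.55 against 399.14 RPKM. In the paper's mapping statistics, PND 14 mouse 1 and PND 21 mouse 1 each had a larger intron share of filtered reads than their age mate. Whether reads of other samples are among those of PND 14 mouse 1 was not tested. Results of the 6 genes at PND 14 and PND 21, and the calls of other genes at these ages, are given with and without these mice.

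The 6 genes fell into 3 patterns. Acta2, Myh11 and Tagln were high from PND 7 to PND 17 and lower at PND 21 and PND 28, though none of them was called in PND 21 vs 17. Actg2 stayed low up to PND 21 and was high at PND 28. Cnn1 and Des were at low levels at every age and no change of theirs passed the test. Over all 5 ages, the F-test of the same edgeR fit called 4 of 6, with Benjamini-Hochberg adjusted p = 7.2e-05 for Actg2, 0.00262 for Acta2, 0.00311 for Myh11 and 0.00481 for Tagln, beside 0.267 for Des and 0.284 for Cnn1. This test called 57.5% of all genes tested, and 4 of 6 is read against that share.

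**Figure D1:**
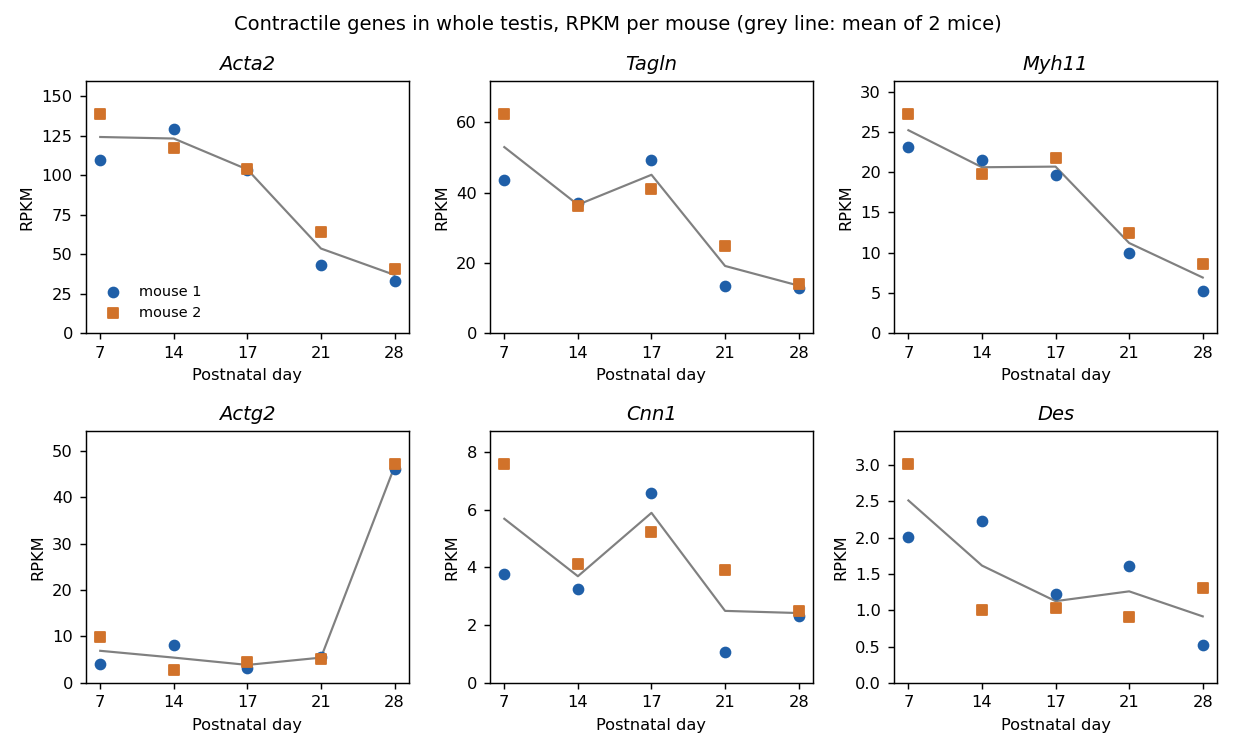
RPKM of each gene (vertical axis, linear from 0, its own scale in each panel) against age in postnatal days, with a circle for mouse 1, a square for mouse 2 and a grey line through the mean of the 2 mice. Acta2, Tagln and Myh11 lie lower at PND 21 than at PND 17, a difference that was not called. For Actg2 both PND 28 mice lie above 46 RPKM and all younger mice lie under 10 RPKM.

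Acta2 encodes alpha smooth muscle actin, the main actin of smooth muscle, and lies at chr19:34315580-34329826 on the minus strand of mm9 with 9 exons. Its RPKM was 109.66 and 138.93 in the PND 7 mice, 129.12 and 117.53 at PND 14, 103.5 and 103.91 at PND 17, 43.37 and 63.81 at PND 21 and 32.94 and 40.8 at PND 28. The PND 7 and PND 14 mice overlapped, the PND 17 mice lay just below them, both PND 21 mice lay below all of them, and both PND 28 mice lay below those of PND 21 in RPKM. Between PND 28 and PND 7 the log2 fold change was -1.43 (SE 0.264, edgeR adjusted p = 0.000791), a 2.69-fold lower level. Here and below, fold changes come from the scaled counts of the test and differ in size from those of RPKM. The mean RPKM of Acta2 was 124.295 at PND 7 and 36.87 at PND 28.

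Myh11, the heavy chain of smooth muscle myosin and the motor that pulls on the actin, lies at chr16:14194620-14291501 on the minus strand with 42 exons. Its RPKM was 23.2 and 27.26 at PND 7, 21.48 and 19.77 at PND 14, 19.67 and 21.74 at PND 17, 9.93 and 12.48 at PND 21 and 5.28 and 8.54 at PND 28. As for Acta2, the RPKM of no PND 21 mouse reached that of any younger mouse and no PND 28 mouse reached any of PND 21. On the CPM scaled by TMM that the test uses, the PND 28 and PND 21 mice overlapped for both genes. The log2 fold change between PND 28 and PND 7 was -1.55 (SE 0.268, edgeR adjusted p = 0.000523).

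Tagln encodes transgelin, an actin binding protein abundant in smooth muscle, and lies at chr9:45737711-45744141 on the minus strand. Its RPKM was 43.51 and 62.415 at PND 7, 36.97 and 36.13 at PND 14, 49.16 and 41.0 at PND 17, 13.53 and 24.71 at PND 21 and 12.96 and 14.07 at PND 28. The PND 17 mice lay above the PND 14 mice, and the mice of PND 21 and PND 28 overlapped. Between PND 28 and PND 7 it was lower by the largest fold of the 6 genes, with a log2 fold change of -1.65 (SE 0.325, edgeR adjusted p = 0.00121), or 3.13-fold. Its exons share 65 of 1586 bases with those of Pcsk7 on the opposite strand, and whether strand was used in counting is not given in the sources used here.

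In PND 28 vs 7, 3 of 6 genes were called lower and 1 of 6 higher, where 23.4% of all genes tested were called lower and 32.2% higher. The median log2 fold change was -1.31 over the 6 genes and 0.103 over all genes tested. RNA-seq measures shares of the counted reads. A lower value in a whole testis can reflect fewer cells of a type, less RNA per cell or more RNA from other cells. These cannot be told apart here. The libraries also differed with age. In the paper's mapping statistics, introns took a larger share of the filtered reads in both PND 7 mice than in both PND 28 mice. The part of this difference in the PND 28 vs 7 changes was not tested.

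Cnn1 encodes calponin 1, which binds actin and slows the myosin motor, and lies at chr9:21903725-21914074 on the plus strand. Its RPKM was 3.77 and 7.59 at PND 7, 3.25 and 4.13 at PND 14, 6.56 and 5.21 at PND 17, 1.07 and 3.91 at PND 21 and 2.33 and 2.5 at PND 28. Both PND 28 mice lay below both PND 7 mice, but the log2 fold change of -0.89 (SE 0.553, 95% interval -2.11 to 0.33) had an edgeR adjusted p of 0.182. The counts were small, with 10 reads in PND 21 mouse 1. That is 2.49 CPM, the count scaled to a common library total (95% exact binomial interval 1.19 to 4.58, counting error only), beside 9.08 (6.87 to 11.8) in PND 21 mouse 2.

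Des encodes desmin, the intermediate filament protein of muscle, and lies at chr1:75356904-75365154 on the plus strand. Its RPKM was 2.005 and 3.02 at PND 7, 2.23 and 1.0 at PND 14, 1.22 and 1.03 at PND 17, 1.61 and 0.91 at PND 21 and 0.52 and 1.31 at PND 28, the lowest mean of the 6 genes at every age. The PND 28 mice lay below the PND 7 mice, with a log2 fold change of -1.18 (SE 0.563, 95% interval -2.43 to 0.06) and an edgeR adjusted p of 0.0885. Leaving out PND 28 mouse 2 gave -1.91 and a call (adjusted p = 0.0447). Its exons share 220 of 3754 bases with Gm15179 on the opposite strand.

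Actg2 encodes gamma smooth muscle actin, which is the actin of gut and other visceral smooth muscle, and lies at chr6:83462899-83486259 on the minus strand with 18 exons. Its RPKM was 3.98 and 9.82 at PND 7, 8.19 and 2.67 at PND 14, 3.27 and 4.44 at PND 17, 5.66 and 5.2 at PND 21 and 46.02 and 47.28 at PND 28. Up to PND 21 the ages overlapped apart from PND 17 and PND 21, and both PND 28 mice lay far above all 8 younger mice and close to each other. These RPKM values stand on 626 and 374 reads at PND 28 and on 27 to 106 reads in each younger mouse.

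Between PND 28 and PND 21 the log2 fold change of Actg2 was 3.32 (SE 0.509, edgeR adjusted p = 0.0031), a 10.0-fold rise. It was the only one of the 6 genes called in this comparison, where 7.37% of all genes tested were called higher and 0.297% lower. Against PND 7 the log2 fold change was 3.1 (SE 0.492, edgeR adjusted p = 0.000286). Without PND 21 mouse 2 the change from PND 21 was 3.35 with an adjusted p of 0.0533, which ended the call, while every other mouse could be left out with the call standing. Within PND 7 the mice differed, at 3.98 and 9.82 RPKM, and leaving out either moved the change from PND 7 between 2.61 and 3.86 with adjusted p of 0.00179 and 0.000331.

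The deposited tables also give the number of exons with more than 10 reads. Of the 18 annotated exons of Actg2, 16 had more than 10 reads in each PND 28 mouse. Among the other libraries this number was 11 in PND 14 mouse 1, the library with Tnp1 and Prm1, and 0 to 4 elsewhere. Of these exons 13 overlap another exon of the gene, and the 18 merge into 11 separate blocks, so a read can count for more than 1 exon and the number does not show separate positions along the gene. The 2 barcodes of each PND 7 mouse also enter it apart, which lowers their numbers. The other actins are close relatives, so the longest annotated transcript was compared with theirs in windows of 50 bases, the length of a read. None of its 1284 windows matched Acta2 with 2 or fewer mismatches, and 68 (5.3%) matched some other actin that closely, mostly Actc1 and Acta1 of heart and skeletal muscle. No window matched any other actin exactly. For Acta2, 36 of 1732 windows (2.1%) matched another actin with up to 2 mismatches, of which 7 matched Actg1 exactly.

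**Figure D2:**
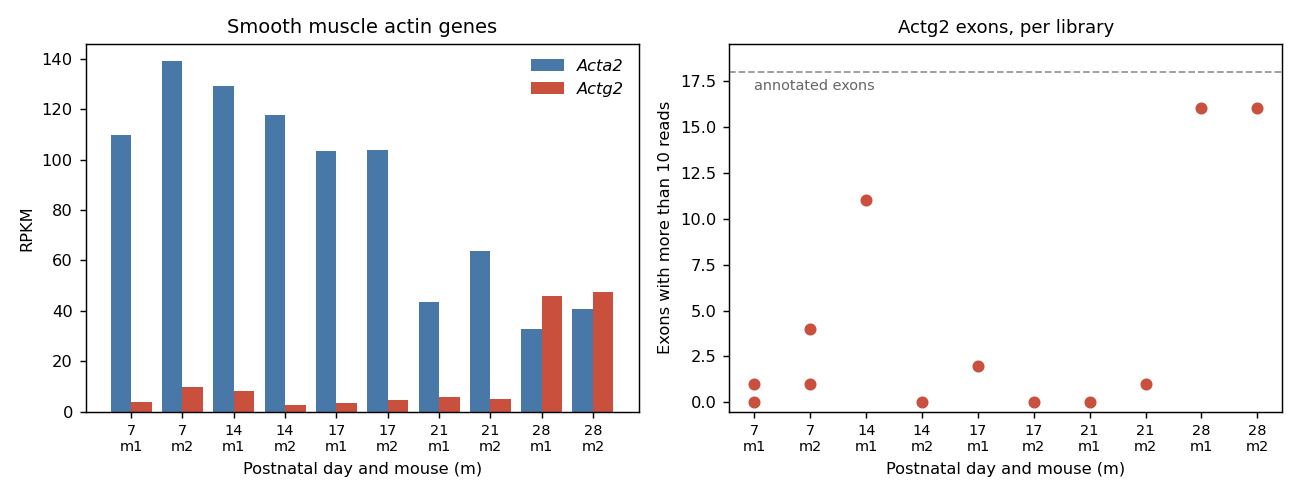
Left, bars from 0 of the RPKM of Acta2 and Actg2 in each mouse, by postnatal day and mouse. Right, the number of Actg2 exons with more than 10 reads in each library (PND 7 mice have 2 libraries each), with a dashed line at the 18 annotated exons, showing 16 in both PND 28 mice and 11 in PND 14 mouse 1. Exons of the gene overlap, so a read can count for more than 1 of them.

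In RPKM of the whole testis, Actg2 exceeded Acta2 at PND 28 only. Whether both transcripts came from the same cells was not tested. Of the RPKM of Acta2 and Actg2 together, Actg2 made up 3.5% and 6.6% at PND 7, 5.96% and 2.22% at PND 14, 3.06% and 4.1% at PND 17, 11.54% and 7.54% at PND 21 and 58.28% and 53.68% at PND 28. The share was already higher in the PND 21 mice than in any younger mouse, with Acta2 lower and Actg2 within its earlier range. At PND 28 the RPKM of Actg2 was 1.4 and 1.16 times that of Acta2, against 0.0227 to 0.131 times in the younger mice.

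Levels between genes are compared per length, as mean RPKM. At each age up to PND 21 the order began with Acta2, Tagln and Myh11, and neighbours among these 3 did not overlap. At PND 7 the means were 124, 53 and 25.2 RPKM, followed by Actg2 (6.9), Cnn1 (5.68) and Des (2.51). Actg2 and Cnn1 overlapped at PND 7 and PND 14, and Cnn1 and Des overlapped at PND 21. At PND 28 the order was Actg2 (46.7), Acta2 (36.9), Tagln (13.5), Myh11 (6.91), Cnn1 (2.42) and Des (0.915), with no overlap between neighbours. Acta2 kept a ratio of 4.37 to 6.24 to Myh11 and of 2.11 to 3.49 to Tagln across all 10 mice.

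Actg2 at PND 28 came with other changes in the same libraries. Between PND 28 and PND 21, 7.37% of all genes tested were called higher, and so were 4 of 8 germ cell genes. Among them Tnp1 went from 27.78 and 25.28 to 3238.33 and 4379.87 RPKM and Prm1 from 12.92 and 13.17 to 2088.32 and 2531.95 RPKM. Of 8 Leydig cell genes, which mark the steroid-producing cells between the tubules, 4 were also called higher. Insl3, a peptide hormone, rose by 2.03 (log2, SE 0.314, edgeR adjusted p = 0.00329) and Cyp17a1, a steroidogenic enzyme, by 2.35 (SE 0.525, adjusted p = 0.0194). The summed RPKM of the germ cell list was 770.83 to 909.25 at PND 21 and 6253.52 to 7876.93 at PND 28, and that of the Leydig list 129.51 to 248.68 and 487.97 to 639.33. Without PND 21 mouse 1, 1 of 8 germ cell genes (Spaca1) and 1 of 8 Leydig genes (Insl3) were called in this comparison, with log2 fold changes of 7.37 for Tnp1 (adjusted p = 0.0536) and 1.67 for Cyp17a1 (adjusted p = 0.0506). The part of these cells in the rise of Actg2 was not tested. As a fraction of the PND 28 mean, PND 14 mouse 1 had 17.56% of Actg2, 4.14% of Tnp1 and 5.77% of Prm1, and PND 14 mouse 2 had 5.72%, 0.14% and 0.11%. At PND 7, mouse 2 had 21.05% of Actg2 with Tnp1 and Prm1 listed at 0, and mouse 1 had 8.53% with 0.04% of Tnp1 and Prm1 listed at 0. These Actg2 levels stand on 106 and 59 reads, and the source of Actg2 at any age was not tested. Acrv1 and Spaca1, genes of the acrosome that appear in round spermatids, were already at 29.7 to 41.03 and 24.76 to 33.85 RPKM at PND 21, when Actg2 was at 5.2 and 5.66 RPKM.

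The step between neighbouring ages was uncertain for the genes that fell. In PND 21 vs 17 none of the 6 was called, with 1.05% of all genes called lower and 9.29% higher. The log2 fold change was -1.08 for Tagln (SE 0.321, edgeR adjusted p = 0.0525), -0.81 for Acta2 (SE 0.261, adjusted p = 0.0684), -0.75 for Myh11 (SE 0.264, adjusted p = 0.0892) and -1.04 for Cnn1 (SE 0.559, adjusted p = 0.254). Both PND 21 mice lay below both PND 17 mice for these 4 genes and above them for Actg2, and for Des they overlapped. The share of all genes separated in this way was not counted. With 2 mice per age, separation is frequent without any difference. With the replicate block, the mouse number as a term in the fit, Tagln was called (adjusted p = 0.0449), and several other settings also called it. Without PND 21 mouse 2, the values were -1.71 for Tagln, -1.24 for Acta2 and -2.44 for Cnn1. Without PND 21 mouse 1, they were -0.65 for Tagln, -0.48 for Acta2, -0.38 for Cnn1 and -0.51 for Myh11. The size of the step at PND 21 therefore rested on which mouse was kept. In PND 28 vs 21 the same genes lay between -0.5 (Myh11) and 0.09 (Cnn1), the latter being -0.09 when scaled by library totals, and none of them was called.

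Between PND 7 and PND 14 none of the 6 genes was called, with 5.43% of all genes called lower and 13.5% higher. All 6 log2 fold changes were below 0, from -0.11 for Acta2 to -0.76 for Des, and Tagln had -0.64 (SE 0.312, edgeR adjusted p = 0.165). Without PND 14 mouse 1, Actg2 had -1.41 and Des -1.41 in place of -0.44 and -0.76, still with no call (adjusted p = 0.0909 and 0.184). Leaving out PND 7 mouse 2 instead turned Acta2 to 0.06 and Actg2 to 0.33. In PND 17 vs 14 edgeR called none of the 6 and 0% of all genes in either direction, while 769 genes had an unadjusted p under 0.05 and DESeq2 called 1 gene. Without PND 14 mouse 1, Actg2 went from -0.44 to 0.51 and Des from -0.41 to 0.21 in that comparison.

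**Figure D3:**
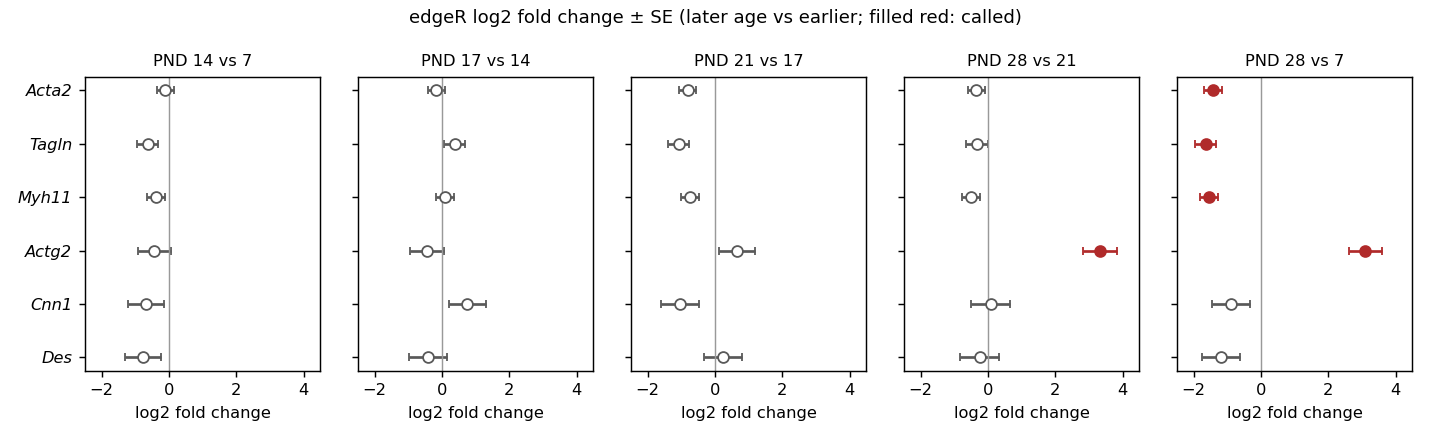
Log2 fold change (horizontal axis, later against earlier age) with its standard error as bars for the 6 genes in each of 5 comparisons, filled red where called. Actg2 is called higher in PND 28 vs 21 and PND 28 vs 7, and Acta2, Tagln and Myh11 are called lower in PND 28 vs 7.

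Across the 10 mice, which share their age groups, log2(CPM + 1) of Acta2 correlated with that of Myh11 at r = 0.964 and with Tagln at 0.946, and Myh11 with Tagln at 0.929. Cnn1 was closest to Tagln (0.851), and Cnn1 and Des had r = 0.099. Actg2 had negative values with all the others, from -0.7 with Myh11 to -0.11 with Des. These correlations are descriptions over n = 10 mice, and age alone sets much of them.

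Most of the wider contractile apparatus was also lower at PND 28. Of 27 listed partners and regulators, 26 were tested and 19 were called lower in PND 28 vs 7, with none called higher. Of all genes tested, 23.4% were called lower and 32.2% higher. The median log2 fold change was -1.69 over the partners and 0.103 over all genes tested. Among the regulators of myosin, Mylk, the kinase that switches smooth muscle myosin on, had -1.61 (SE 0.231, edgeR adjusted p = 0.000146), and Ppp1r12a and Ppp1r12b, subunits of the phosphatase that switches it off, had -1.16 and -1.86. Myl9, the regulatory light chain, went from 99.53 and 125.89 RPKM at PND 7 to 16.11 and 22.09 at PND 28. The actin binding proteins Tpm1, Tpm2 and Cald1 (tropomyosins and caldesmon) had -1.76, -1.62 and -1.76, and Lmod1 and Smtn, smooth muscle actin proteins, had -2.27 and -4.1. Smtn had its largest step before PND 14, from 3.95 and 4.75 to 1.13 and 0.79 RPKM, and was called lower in PND 14 vs 7 (-2.27, SE 0.411, adjusted p = 0.00324, and -2.52 without PND 14 mouse 1).

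Proteins of the sites where actin is anchored were also called lower, with log2 fold changes of -2.13 for Actn1 (alpha-actinin), -1.53 for Vcl (vinculin), -2.02 for Flna (filamin) and -1.29 for Cav1 (caveolin). The LIM domain genes Pdlim3, Pdlim7 and Tgfb1i1 had -3.25, -2.83 and -2.51, and Synpo2, at under 1.1 RPKM in every mouse, had -1.83. Myocd, the coactivator myocardin that drives smooth muscle genes with the factor encoded by Srf, went from 2.24 and 1.82 RPKM at PND 7 to 0.21 and 0.3 at PND 28 (log2 fold change -2.74, SE 0.605, edgeR adjusted p = 0.00244), and its relative Mkl2 had -1.44. Csrp1, a LIM protein of smooth muscle, had -0.8, an adjusted p of 0.0192 and a fold below 2, so it was not called. Other partners that were not called included Srf itself (0.07, SE 0.258, adjusted p = 0.836), Mkl1, Myl6, Ppp1r14a and Itga8, with log2 fold changes between -0.32 and 0.73.

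In PND 14 vs 7, where 5.43% of all genes were called lower, 4 of 26 partners (Pdlim3, Pdlim7, Ppp1r12b and Smtn) and none of the 6 genes were called lower, with medians of -0.75 and -0.54. Without PND 14 mouse 1, 5 of 26 were called lower, with Pdlim7 losing its call (adjusted p = 0.0803) and Myl9 (-1.7) and Actn1 (-1.41) gaining one. The summed RPKM of the partners at PND 17 was 58% of its PND 7 mean, and that of the 5 genes without Actg2 was 83.8%. At PND 21 these were 39.2% and 41.6%, and at PND 28 25.5% and 28.8%. A difference in timing was not tested.

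Close paralogues, the forms of actin, myosin, calponin, transgelin and intermediate filaments that are not particular to smooth muscle, formed another list. Of 11 tested, 8 were called lower in PND 28 vs 7 and none higher, beside 23.4% and 32.2% of all genes tested, with a median of -2.47. Cnn3, a calponin of non-muscle cells, had -3.21 (SE 0.272, edgeR adjusted p = 4e-06), Vim, the vimentin of mesenchymal and Sertoli cells, had -2.2 (SE 0.269, adjusted p = 4.6e-05), and Cnn2, Tagln2, Myh9, Myh14, Nes and Synm had values from -4.01 to -1.9. Actb, the cytoplasmic beta-actin, had -0.97 and a fold below 2. Markers of striated muscle were low. Of 15, 11 stayed under 1 RPKM in every mouse, among them Ckm, Myl1 and Mb at 0 to 0.48 RPKM, and the list summed to between 5.8 and 13.91 RPKM, which is above Des in every mouse. The genes with the highest means were Actn3, an alpha-actinin of fast muscle, at 1.16 to 9.02 RPKM, Actn2, an alpha-actinin of heart and skeletal muscle, at 0.21 to 5.19 RPKM, and Mylpf, a fast muscle light chain, at 0 to 2.03 RPKM. In PND 28 vs 7, Actn3 was called higher (1.85) and Actn2, highest in PND 7 mouse 2, lower (-2.56), and Myh6, of heart muscle, was also called lower. Their part in the levels of the 6 genes was not tested.

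Other somatic cell types of the testis were read from marker lists in the same libraries, and their counts in PND 28 vs 7 are to be read beside the 23.4% of all genes called lower and 32.2% called higher. Of the markers of pericytes and vascular mural cells, which also express the contractile genes, 6 of 8 were called lower in PND 28 vs 7 and none higher, with a median log2 fold change of -1.92. Mcam, an adhesion protein, had -1.2 (SE 0.25, edgeR adjusted p = 0.00166), Pdgfrb, the growth factor receptor of pericytes, had -2.18 and Rgs5, a regulator of G proteins, had -0.68, with a fold below 2. Their summed RPKM stood at 38.28 to 38.65 at PND 7, 37.2 to 38.58 at PND 14, 37.12 to 37.42 at PND 17, 18.59 to 21.76 at PND 21 and 12.53 to 13.34 at PND 28. The log2 ratio of the 5 contractile genes without Actg2 to this list lay between 1.9 and 2.64 in all 10 mice. Such a narrow range was not particular to mural genes. The ratio lay between -1.23 and -0.743 for the fibroblast and matrix list and between 1.77 and 2.62 for the endothelial list. A fall of vascular smooth muscle RNA and one of myoid cell RNA cannot be told apart in these samples.

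Sertoli cell genes, of which 8 of 12 were called lower and 2 higher, had a median of -1.69. Both higher calls are Ensembl genes that share the symbol Trf (transferrin), so the list holds that symbol in duplicate. Clu went from 416.07 and 362.55 RPKM at PND 7 to 56.21 and 91.95 at PND 28, Cldn11, a tight junction gene, had a log2 fold change of -1.12 and Inha, the inhibin alpha subunit, had -0.56 and was not called. Endothelial genes had 6 of 12 called lower and 2 higher and a median of -1.4, with Cdh5 and Pecam1, junction proteins of vessels, at -2.26 and -1.22 and Cldn5 called higher at 1.99. Fibroblast and matrix genes had 7 of 8 called lower, with a median of -2.72 and the collagens Col3a1 and Col1a2 at -2.83 and -2.66, while Dcn (decorin) had -0.8 and was not called. The hedgehog receptor side, through which Sertoli cells signal to myoid and Leydig precursors, had 6 of 7 called lower, a median of -3.17 and values of -3.28 for the receptor Ptch1, -2.76 for Smo and -4.16 for the target and factor Gli1. Ptch1 and Gli1 were already called lower in PND 14 vs 7 (-1.37 and -1.88, and -1.96 and -2.22 without PND 14 mouse 1, both still called).

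Leydig cell genes had 4 of 8 called higher and 1 lower in PND 28 vs 7, with a median of 1.65 and Cyp11a1, Cyp17a1 and Insl3 at 2.14, 3.02 and 2.56. Macrophage genes had 1 of 9 called higher (Lyz2, 1.26) and none lower, with a median of 0.32 and the complement genes C1qa and C1qb at 0.53 and 0.87 without a call. Germ cell genes had 7 of 8 called higher, with a median of 4.47 and Sycp3, of the meiotic chromosome axis, at 2.42. As a percentage of the PND 7 mean, the summed RPKM at PND 28 was 28.8% for the 5 contractile genes without Actg2, 33.7% for the mural list, 29.4% for Sertoli, 41.3% for endothelial, 22% for fibroblast and matrix, 10.8% for the hedgehog list, 121.3% for macrophages and 267.8% for Leydig cells.

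**Figure D4:**
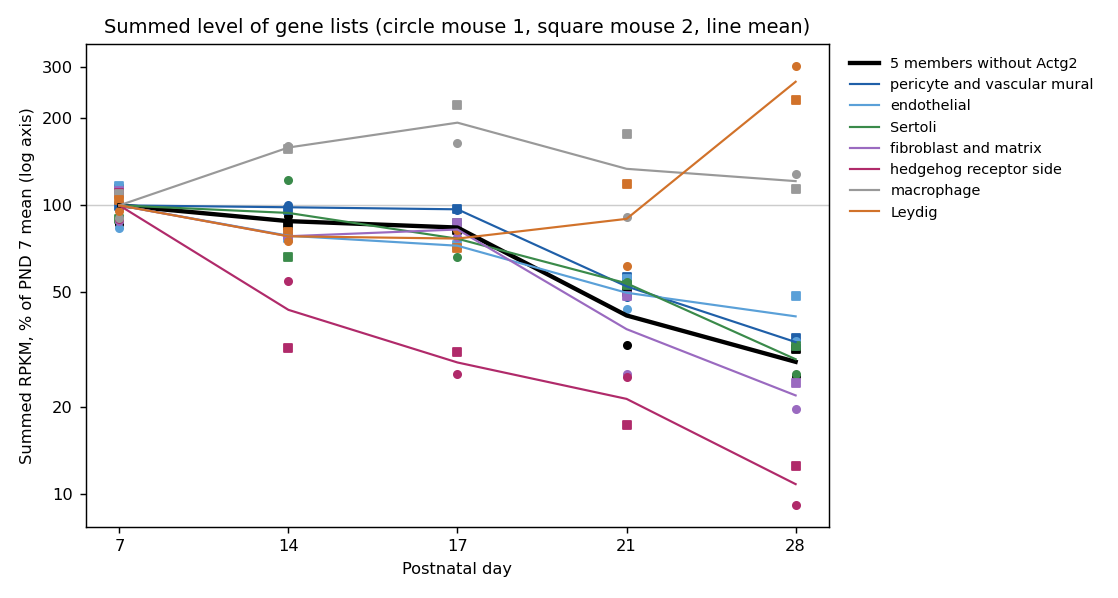
Summed RPKM of 8 gene lists as a percentage of their mean at PND 7 (vertical log axis) against age in postnatal days, with circles for mouse 1, squares for mouse 2 and lines for the mean. The 5 contractile genes without Actg2 (thick black line) run among the mural, Sertoli, endothelial and fibroblast lists and end at 28.8%, while the Leydig list ends at 267.8%.

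The genes whose pattern over the 10 mice was most like the mean standardised pattern of all 6, among 12359 genes averaging 5 CPM or more, were Cercam (r = 0.974), Mcee (0.972), Zfp521 (0.97), Plcb3 (0.967), Colec12 (0.965), Efemp1 (0.963), Bcam (0.956) and Usp27x (0.955). All had lower CPM at PND 28 than at PND 7, with log2 fold changes from -3.06 for Zfp521 to -0.72 for Plcb3. Since Actg2 ran against the others, the ranking was repeated after the values were seen for Actg2 alone. It gave Grip1 (r = 0.991, from 11.6 to 77.1 CPM), Ccdc28a (0.989), Clpb (0.982) and Car2 (0.98, from 1.51 to 66.1 CPM). For the other 5 it was led by Cldn1 (0.985) and 1110021L09Rik (0.979). A high r over 10 mice at 5 ages is a description of shared age patterns.

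RefSeq promoter windows were at hand for 3 of the 6 genes, Acta2, Cnn1 and Des, and their 250 bases before the transcription start are shown. Acta2 was called over the ages, and Cnn1 and Des, which had few reads, were not. Actg2, Myh11 and Tagln were also called but had no window, so a link between sequence and calls was not tested. Smooth muscle genes are known for the CArG box, the site of the factor encoded by Srf, which consists of CC, 6 letters of A or T, and GG and reads as the same rule on both strands. Capitals mark matches in which at most 1 of the 6 middle letters is C or G. The windows are on build GRCm38.p6, at chr19:34255374-34255623 (minus strand) for Acta2, chr9:22099003-22099252 (plus) for Cnn1 and chr1:75360042-75360291 (plus) for Des, each written 5′ to 3′ along the gene.
Acta2: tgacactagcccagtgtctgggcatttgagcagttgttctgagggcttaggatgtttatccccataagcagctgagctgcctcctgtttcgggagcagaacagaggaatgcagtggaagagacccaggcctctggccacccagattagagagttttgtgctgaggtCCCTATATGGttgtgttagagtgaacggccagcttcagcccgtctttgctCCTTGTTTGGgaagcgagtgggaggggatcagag
Cnn1: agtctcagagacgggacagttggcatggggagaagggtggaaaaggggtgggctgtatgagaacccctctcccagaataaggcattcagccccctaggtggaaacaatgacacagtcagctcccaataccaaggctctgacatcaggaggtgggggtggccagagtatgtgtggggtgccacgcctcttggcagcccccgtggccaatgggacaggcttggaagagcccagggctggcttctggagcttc
Des: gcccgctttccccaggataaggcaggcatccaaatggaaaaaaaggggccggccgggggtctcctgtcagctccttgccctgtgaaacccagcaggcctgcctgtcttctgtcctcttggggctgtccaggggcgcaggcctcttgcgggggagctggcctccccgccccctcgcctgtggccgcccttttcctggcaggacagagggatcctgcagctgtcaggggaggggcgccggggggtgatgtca
Acta2 had 2 such matches, CCCTATATGG from -84 to -75 and CCTTGTTTGG from -34 to -25 relative to the start, each with 1 C or G among the middle letters. Of all 32851 promoter windows of this length, 8.59% held at least 1 match of this kind or an exact one, 1.47% an exact one and 0.67% at least 2. The windows of Cnn1 and Des held no match of either kind. A match describes the sequence and was not tested as a binding site.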

How the data were processed

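The authors sequenced whole-testis RNA on the SOLiD 4 (50 bp reads), used LifeScope v2.1 with mm9 for alignment, left out reads placed at over 10 sites and deposited, per Ensembl gene, a raw count of unique reads, an RPKM and the number of exons with more than 10 reads. Strand use in counting is not given in the sources used here. Symbols came from the annotation for 37310 of 37675 gene IDs and for 128 of 129 listed symbols (Trf matched 2 genes).

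Counts were tested with edgeR 4.0.16 (TMM, filterByExpr, quasi-likelihood, all 10 mice, age as factor), common dispersion 0.0726. Intervals use the fit's t quantiles. Alternatives were DESeq2 1.42.0, limma 3.58.1 on log2(RPKM + 1) or log2(RPKM + 0.1), other scalings and filters, a replicate block, separate PND 7 barcodes and leaving out each mouse. Listed genes were tested without PND 14 mouse 1 or PND 21 mouse 1 as alternatives chosen after seeing the data. The scripts were tested on simulated data. The 6 genes and 11 lists were chosen with earlier results of these data known. Named were the 6 genes, the 3 genes of each list with the highest mean RPKM, each partner or paralogue called in PND 28 vs 7, and the 8 genes most alike in pattern. Others were named after their values were seen. Nothing states that mice of an age came from separate litters, so p-values measure the spread between these mice.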

Additional observations from a re-analysis of the deposited data

How the results depend on the processing

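The calls of Acta2, Myh11, Tagln and Actg2 in PND 28 vs 7 stood under all alternatives tried, with log2 fold changes from -1.75 to -1.27, -1.89 to -1.23, -1.97 to -1.38 and 2.61 to 3.86. The number of the 6 genes called in PND 21 vs 17 was 0, and 1 (Tagln) with library totals, no filter, the replicate block, separate PND 7 barcodes, small structural RNAs and mitochondrial genes left out, or the criteria of the study's methods; over mice left out it ranged from 0 to 3. In PND 28 vs 21 it was 1 (Actg2), 0 with limma on log2(RPKM + 0.1) (log2 fold change 3.08, adjusted p = 0.0504), and 0 to 1 over mice left out. The cause was not tested. Des in PND 28 vs 7 was also called with library totals (-1.51) and separate barcodes (-1.16). Directions turned for Myh11 in PND 17 vs 14 (-0.002 with library totals) and Cnn1 in PND 28 vs 21 (-0.089 with library totals, -0.016 with only the mice of those ages). Over mice left out they turned for Acta2 in PND 14 vs 7 (-0.23 to 0.062) and 28 vs 21 (-0.65 to 0.075), Actg2 in 14 vs 7 (-1.41 to 0.33) and 17 vs 14 (-1.01 to 0.51), Myh11 in 17 vs 14 (-0.005 to 0.17), Des in 17 vs 14 (-0.85 to 0.21), 21 vs 17 (-0.095 to 0.53) and 28 vs 21 (-1.0 to 0.297), and Tagln (-0.73 to 0.31) and Cnn1 (-0.56 to 1.48) in 28 vs 21; none of these was called as reported. Of the log2 fold changes, 378 of 390 under other settings and 281 of 300 with a mouse left out kept direction and side of the threshold.

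Deviations of mice with the same number had no common sign over the ages (r from -0.253 to 0.398), so the numbers were not taken as pairs. The highest r, 0.398, was between PND 14 and PND 21, the ages of the mice 1 that stood apart. Whether those libraries share an effect was not tested. The replicate block changed no call other than that of Tagln. Library totals moved the median log2 fold change of all genes to -0.22 in PND 28 vs 7 and -0.19 in 28 vs 21, and RLE moved the former to 0.268. Over all genes, 1566 of 1743 calls in PND 21 vs 17 were higher, and 1282 of 1624 with library totals. The number called ranged from 978 to 4409 in PND 14 vs 7 (3191 as reported), 0 to 357 in 17 vs 14 (0 as reported), 266 to 2477 in 21 vs 17 (1743 as reported), 312 to 1970 in 28 vs 21 (1292 as reported) and 3842 to 10562 in 28 vs 7 (9378 as reported). Cnn1 had 10 to 204 reads and Des 15 to 81 per mouse, and mice of the same age differed beyond counting error for Cnn1 at PND 7 and PND 21 and for Des at PND 14 and PND 28. With 2 mice per age no outlier could be tested for.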
